A study of Mus musculus with 6 samples.

Results

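The surface Toll-like receptors and their adaptors, 10 genes, were followed in cultured mouse keratinocytes, chosen by name from the gene count table. They are the receptors Tlr1, Tlr2, Tlr4, Tlr5 and Tlr6, the accessory genes Cd14 and Ly96, the adaptors Myd88 and Ticam1, and the kinase gene Irak4. All 10 were found among the 43629 genes of the table, and 9 of them passed the filter on low counts and were tested. Keratinocytes were isolated from the epidermis of female mice at postnatal day 3 and cultured for 5 days according to the labels (a legend of the study gives a shorter time), with 3 control and 3 Dnmt1Δ/Δep libraries. In Dnmt1Δ/Δep mice, both floxed copies of Dnmt1, the gene of the maintenance DNA methyltransferase, are deleted by a Cre driven from the Keratin 5 promoter in the epidermis. Control mice of the study carried 1 or 2 floxed alleles, in some of its experiments also with 1 allele deleted by the Cre, and the labels do not say which genotype a control library has. All mice were of a mixed C57BL/6J and 129SV background. The comparison asks whether innate immune genes change in keratinocytes that lack DNMT1 when these are kept apart from the skin.

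Toll-like receptors are transmembrane proteins that recognize microbial molecules and products of damaged cells. TLR4 binds lipopolysaccharide together with MD-2, the product of Ly96, after CD14 has handed the ligand over. TLR2 recognizes bacterial lipoproteins as a pair with TLR1 or TLR6, and TLR5 recognizes flagellin. Most of these receptors signal through MyD88 and the kinase IRAK4 to NF-kB, while TLR4 and the endosomal TLR3 can also use TRIF, the product of Ticam1. In skin, keratinocytes are among the first cells to meet such ligands.

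Gene reads per library lay between 53433121 and 115526598. Dnmt1 itself fell from 366 ± 37.2 to 51.6 ± 2.44 CPM, the TMM-normalized read count scaled to a common library size (SD, n = 3). Across the 16829 genes tested with edgeR's quasi-likelihood test, 1014 were called higher in Dnmt1Δ/Δep keratinocytes (6.03%) and 66 lower (0.392%). Calls required both a Benjamini-Hochberg adjusted p, over all genes tested, no larger than 0.05 and a 2-fold difference, that is, 1 on the log2 scale. The 9 keratinocyte markers summed to between 30324 and 34073 CPM in the control libraries, against between 22848 and 23276 CPM in Dnmt1Δ/Δep libraries, most of it from Krt5 and Krt14. Krt5, Krt14 and Col17a1 passed the adjusted p alone, with log2 fold changes of −0.50, −0.61 and −0.55 (edgeR). The differentiation markers Krt1 and Krt10 had −2.30 and −1.58 and were not called in edgeR with all libraries, but were called lower by DESeq2 and by edgeR without a filter on low counts or without control replicate 1. Krt1 was at 53.2 CPM in that library, against 356 and 530 CPM in the other control libraries. The integrin genes Itga6 and Itgb4 had 0.18 and 0.17 and were not called by edgeR or DESeq2. Per the table's headers, libraries with the same replicate number were run on the same lane.

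RefSeq promoter sequences on GRCm38.p6 were searched for 7 of the 10 genes. Tlr4, Cd14 and Ly96 were left out of the search, so that matches at these genes were not tested. In each sequence, the 250 bases before the annotated start were searched for a pair of motifs tied to this pathway. These are the kappaB consensus, bound by NF-kB, and GAAANNGAAA, the core of an interferon-stimulated response element, both on either strand. Among 32851 promoters of this length, 7.25% held a kappaB match and 2.98% the interferon element. Among the 7 genes searched, kappaB matches were found at Tlr2 alone, a pair that overlaps between bases 173 and 163 before the start. Myd88 had 1 interferon element, between bases 40 and 31 before the start, and Tlr6 had 2 overlapping ones at 1 of its 2 starts. The Tlr2 and Myd88 promoters are shown because they carry these matches and belong to a receptor and to the adaptor that it signals through. In GENCODE, 159 bases of the Tlr2 window and 23 of the Myd88 window lie in an exon and are not shown. The kappaB letters of Tlr2 lie 14 to 4 bases upstream of the GENCODE start of the gene. Another GENCODE transcript of Myd88 starts further upstream, so that the Myd88 bases shown lie within the annotated gene, in an intron of that transcript. Capitals mark the motif matches, 5′ to 3′ on the minus strand at chr3:83841768-83841858 for Tlr2 and chr9:119340042-119340268 for Myd88.
Tlr2: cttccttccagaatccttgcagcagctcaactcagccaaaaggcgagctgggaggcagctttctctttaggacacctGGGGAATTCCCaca
Myd88: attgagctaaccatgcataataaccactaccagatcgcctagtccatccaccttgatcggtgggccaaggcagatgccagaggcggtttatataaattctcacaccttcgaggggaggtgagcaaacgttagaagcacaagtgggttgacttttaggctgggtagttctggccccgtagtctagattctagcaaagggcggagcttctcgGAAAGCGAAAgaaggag
CpG dinucleotides, the sites that DNMT1 methylates, numbered 11 in the whole Tlr2 window of 250 bases, with 1 of them in the 91 bases shown. The Myd88 window had 9, all in the 227 bases shown. The windows of all 7 genes held between 1 CpG, at 1 start of Tlr1, and 14, at Irak4, around a median of 6 over all promoters. A match describes the letters of a window and not a bound site.

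Tlr4 was the one gene of the 10 that was called, and it rose. It encodes the lipopolysaccharide receptor (ENSMUSG00000039005, GRCm38 chromosome 4, 66827584 to 66930284, plus strand). The control libraries held 4.05, 3.01 and 4.47 CPM, and the Dnmt1Δ/Δep libraries 20.7, 15.3 and 18.7 CPM. The lowest Dnmt1Δ/Δep library was thus 3.42 times the highest control library, and the groups did not overlap. The log2 fold change was 2.25 (standard error 0.20; edgeR's quasi-likelihood test, adjusted p = 0.00104), a 4.76-fold rise with a 95% interval from 3.43 to 6.61. Within the pairs of libraries from lanes 1, 3 and 2, which are replicates 1, 2 and 3, the log2 ratios were 2.33, 2.31 and 2.04. Tlr4 was also called in each of the 12 alternatives, including every fit that left out 1 library. With 1 of 9 tested genes called higher, the count is to be read against the 6.03% of all genes, and 0 of the 9 were called lower in edgeR or DESeq2, also at an unadjusted p of 0.05.

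**Figure D1:**
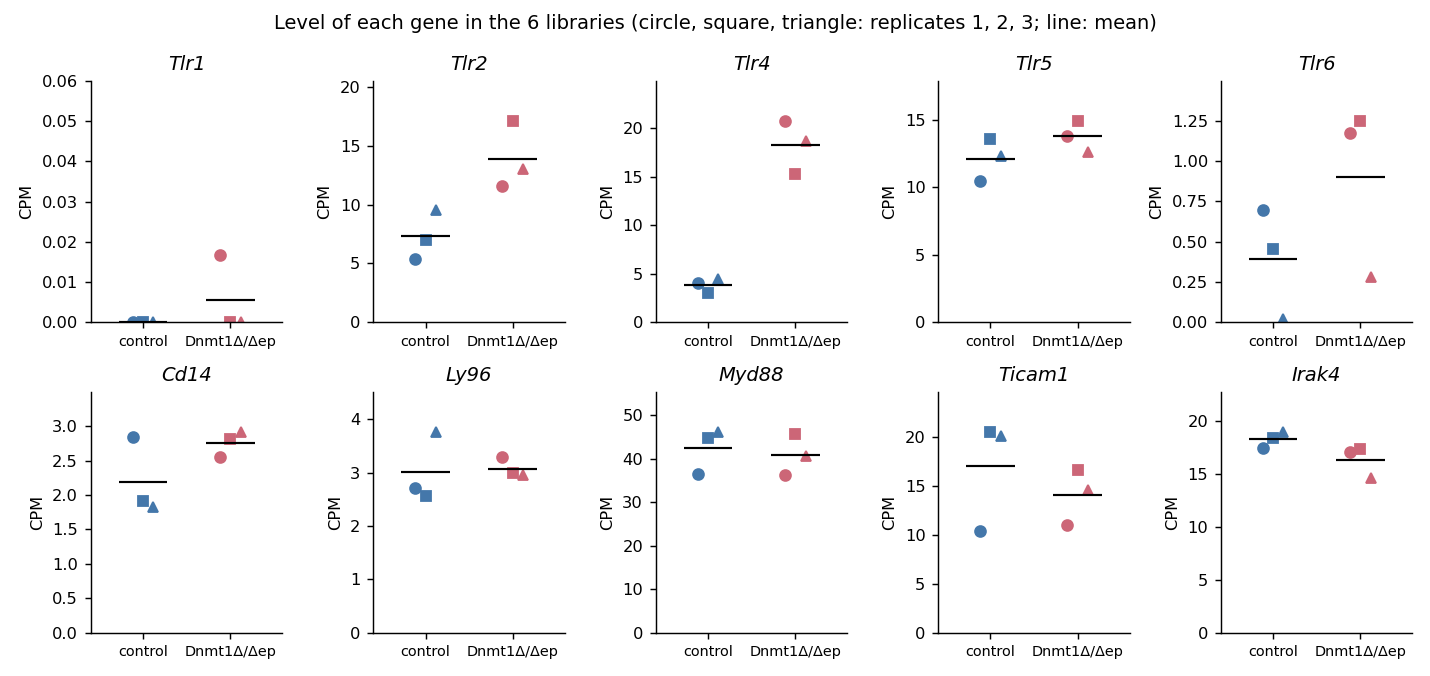
CPM of each of the 10 genes in the 3 control and 3 Dnmt1Δ/Δep libraries, on linear axes from 0 that differ between panels. Symbols are replicates and lines group means, and the groups are separate for Tlr2 and Tlr4 (higher in Dnmt1Δ/Δep) and for Irak4 (lower), whereas they overlap for the others.

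The genes of the partners of TLR4 in ligand recognition were not called. Ly96 (ENSMUSG00000025779, chromosome 1, 16688051 to 16709611, plus strand) had 2.72, 2.57 and 3.76 CPM in control libraries and 3.29, 2.98 and 2.95 CPM in Dnmt1Δ/Δep keratinocytes. All 3 Dnmt1Δ/Δep libraries lay within the control range. The log2 fold change was 0.03 (95% interval −0.47 to 0.53, adjusted p = 0.962 in edgeR), so that a 2-fold change lies outside the interval.
Cd14 (ENSMUSG00000051439), which codes for the lipopolysaccharide co-receptor, had 2.84, 1.92 and 1.82 CPM in control libraries and 2.55, 2.81 and 2.92 CPM in Dnmt1Δ/Δep libraries. One control library lay among the Dnmt1Δ/Δep values and the other 2 below them. Its log2 fold change of 0.33 had a 95% interval from −0.22 to 0.88 (adjusted p = 0.476 in edgeR). Lbp, the serum protein that carries lipopolysaccharide to CD14, was close to 0, with 0.0105 ± 0.0106 CPM in control libraries and 0.0206 ± 0.0264 CPM in Dnmt1Δ/Δep libraries (SD, n = 3), and was not tested.

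Ratios within a library do not depend on its scaling. Tlr4 over Ly96, both per kilobase of exon, was 0.274, 0.215 and 0.218 in control and 1.16, 0.942 and 1.17 in Dnmt1Δ/Δep libraries. Per kilobase of annotated exon, the receptor thus went from well below its partner to about the same level, a 4.62-fold shift of the ratio. The shift does not depend on the exon lengths used, whereas the level of the ratio does. Tlr4 over Cd14 shifted 3.73-fold and Tlr4 over Tlr2 2.48-fold, again without overlap between the groups. An exact two-sided permutation test gave p = 0.1 for each of these 3 ratios, the smallest value that 3 libraries against 3 allow, and an adjusted p of 0.125 (Benjamini-Hochberg over the 5 ratios computed).

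Tlr2 was higher in every Dnmt1Δ/Δep library but was not called. The gene (ENSMUSG00000027995, chromosome 3, 83836272 to 83841767, minus strand) encodes the receptor that TLR1 and TLR6 pair with. Its level was 5.39, 7.0 and 9.59 CPM in control libraries and 11.6, 17.1 and 13.0 CPM in Dnmt1Δ/Δep keratinocytes. The groups did not overlap, although the lowest Dnmt1Δ/Δep library was only 1.21 times the highest control library. The log2 fold change of 0.93 (standard error 0.25, 95% interval 0.35 to 1.51) missed both thresholds (adjusted p = 0.0599 in edgeR). With the lane pairs as a replicate block the adjusted p was 0.0350 in edgeR and the log2 fold change 0.95, still under the threshold of 1. In the lane pairs the log2 ratios were 1.09, 1.28 and 0.44, the last from the pair that holds the highest control value. Without that library, control replicate 3, Tlr2 passed both thresholds at a log2 fold change of 1.17 (edgeR, adjusted p = 0.0349). Over all 12 alternatives its adjusted p ranged from 0.00673 with DESeq2 to 0.204. The printed promoter with kappaB matches belongs to this gene. Such a match occurs in 7.25% of all promoters, and a link to the level of Tlr2 was not tested.

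Tlr5 (ENSMUSG00000079164, chromosome 1, 182954788 to 182976044, plus strand) encodes the flagellin receptor. The control libraries had 10.5, 13.6 and 12.3 CPM and the Dnmt1Δ/Δep libraries 13.8, 14.9 and 12.6 CPM. Values of the groups overlapped, and the log2 fold change was 0.18 (95% interval −0.15 to 0.52, adjusted p = 0.523 in edgeR).
Tlr6 and Tlr1, the partners of TLR2, lie next to each other on chromosome 5 and were scarce. Tlr6 (ENSMUSG00000051498, 64952031 to 64960097, minus strand) had 66, 44 and 1 counts in control and 70, 108 and 33 counts in Dnmt1Δ/Δep libraries. These are 0.698, 0.451 and 0.0186 CPM against 1.17, 1.25 and 0.280 CPM, with replicate 3 lowest in both groups. The log2 fold change of 1.15 carried a standard error of 0.90 and was not called (edgeR, adjusted p = 0.526), with an interval from −0.97 to 3.27. In the lane pairs the log2 ratios were 0.68, 1.29 and 1.68, all above 0, after 0.1 CPM was added to each value. With the lane pairs as a replicate block the log2 fold change was 1.45 (standard error 0.46), again not called (edgeR, adjusted p = 0.101).
Tlr1 (ENSMUSG00000044827, 64924679 to 64933563, minus strand) had 0 counts in 5 libraries and 1 count in Dnmt1Δ/Δep replicate 1. A count of 0 allows up to 3 counts, between 0.0254 and 0.0558 CPM in these libraries, for counting error only. Of the 50-base stretches in Tlr1 transcripts, 15.4% also occur in transcripts of other genes, mostly Tlr6, and for Tlr6 the share is 12.3%. Reads of such stretches map to more than 1 place and are missing from counts of uniquely mapped reads, so the levels of this pair are uncertain.

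**Figure D2:**
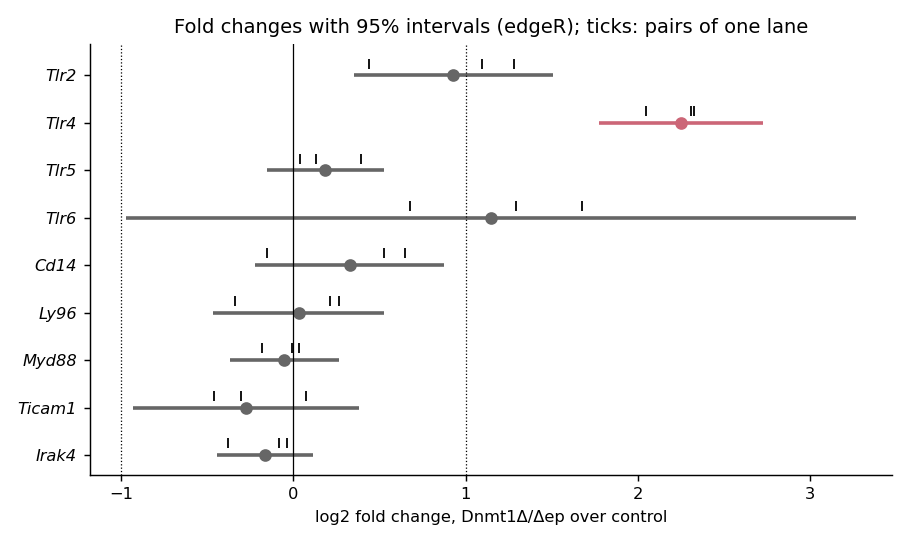
Log2 fold change of Dnmt1Δ/Δep over control keratinocytes for the 9 tested genes, with points for edgeR's estimate, bars for the 95% interval and ticks for the 3 lane pairs (0.1 CPM added). Dotted lines mark a log2 fold change of 1 in size, and only Tlr4, in red, has its whole interval beyond it.

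The adaptors and the kinase were not called in either direction. Myd88 (ENSMUSG00000032508, chromosome 9, 119335934 to 119341411, minus strand) had 36.5, 44.6 and 46.1 CPM in control libraries and 36.3, 45.7 and 40.7 CPM in Dnmt1Δ/Δep libraries. The values were mixed between the groups, and the log2 fold change was −0.05 (95% interval −0.37 to 0.26, adjusted p = 0.882 in edgeR). Of its exon sequence, 11.3% overlaps Acaa1a on the other strand, and reads there may be counted for neither gene if the counting did not use strand.
Ticam1 (ENSMUSG00000047123, chromosome 17, 56269319 to 56276786, minus strand), the gene of TRIF, had 10.4, 20.5 and 20.1 CPM in control libraries and 11, 16.6 and 14.6 CPM in Dnmt1Δ/Δep libraries. Replicate 1 was lowest in both groups. The log2 fold change was −0.27 (95% interval −0.93 to 0.38, adjusted p = 0.645 in edgeR).
Irak4 (ENSMUSG00000059883, chromosome 15, 94543643 to 94581815, plus strand) encodes the first kinase recruited by MyD88. Its level was 17.5, 18.4 and 19.0 CPM in control libraries and 17.1, 17.3 and 14.6 CPM in Dnmt1Δ/Δep keratinocytes. All 3 Dnmt1Δ/Δep libraries lay just below the control libraries, with a log2 fold change of −0.16 (95% interval −0.44 to 0.11, adjusted p = 0.480 in edgeR). Of its exon bases, 7.87% overlap Twf1 on the opposite strand. Among the 9 tested genes, 2 had all Dnmt1Δ/Δep libraries above and 1 all below the control libraries, where 18.2% and 11.7% of all tested genes did so. The median log2 fold change of the 9 was 0.18, against −0.000894 over all genes tested.

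Levels of different genes were compared per kilobase of exon at equal library size (RPKM). In control keratinocytes Myd88 was the highest at 16.5 ± 2.02 RPKM (SD, n = 3), with no overlap with the next gene. Ticam1, Irak4, Ly96, Tlr5 and Tlr2 followed with means from 5.69 down to 2.43 RPKM, and each overlapped its neighbor in this order. Cd14 came next at 1.27 ± 0.325 RPKM, then Tlr4 at 0.691 ± 0.135 RPKM and Tlr6 at 0.104 ± 0.0923 RPKM, each separate from its neighbors (SD, n = 3).
In Dnmt1Δ/Δep keratinocytes Tlr4 moved from the eighth to the fourth place, at 3.29 ± 0.496 RPKM (SD, n = 3). There it overlapped Irak4 (3.25 RPKM), and Irak4 overlapped Ly96 (3.01 RPKM). Tlr2, at 4.62 ± 0.947 RPKM (SD, n = 3), reached the range of Ticam1 and left that of Tlr5. The summed level of the 5 receptors was 5.76 ± 0.831 RPKM in control and 11 ± 0.761 RPKM in Dnmt1Δ/Δep libraries (SD, n = 3). Tlr4 made up between 9.30% and 14.9% of this sum in control and between 23.2% and 34.6% in Dnmt1Δ/Δep libraries. The share of Tlr5 went the other way, from between 39.1% and 48.7% to between 25.4% and 26.7%, while its own level was not called. The share of Tlr2 overlapped between the groups.

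**Figure D3:**
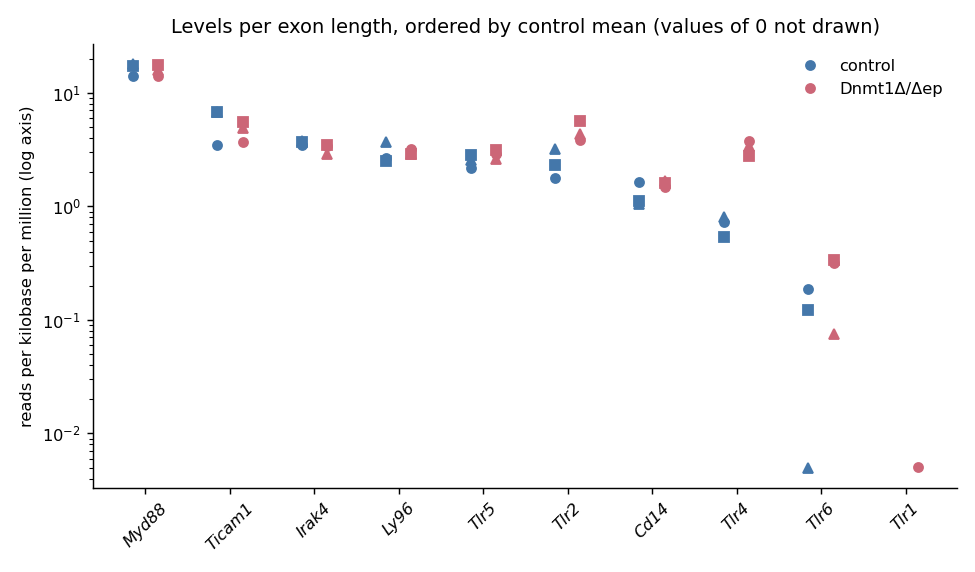
Level of the 10 genes in RPKM on a log axis, ordered by their control mean, with 1 symbol per library and values of 0 left out. Tlr4 lies below Cd14 in the control libraries and near Irak4 and Ly96 in the Dnmt1Δ/Δep libraries.

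Across the 6 libraries, the genes whose log2 CPM followed Tlr4 most closely, among 10407 genes with a mean of at least 5 CPM, were Porcn, Lgals9 and Map1b (Pearson's r between 0.997 and 0.998). Lgals9 encodes galectin-9 and Porcn an acyltransferase of Wnt proteins. Each of the 3 was itself called higher, with log2 fold changes from 1.46 to 1.92, and thus differs between the groups in the same direction as Tlr4. For Tlr2 the 3 nearest genes were Usp4, Ier2 and Uso1 (r between 0.990 and 0.993), of which none (0) was called. Among the members, the highest coefficients were those of Myd88 with Ticam1 (0.95) and of Tlr2 with Tlr4 (0.82). All of these describe 6 points that share their libraries and groups.

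Further genes of the pathway were taken from lists ordered by role. Of 17 genes of proximal signaling, 15 were tested and 0 were called in either direction, also 0 at an unadjusted p with the fold threshold and 0 with DESeq2. Of these, 2 rose at the adjusted p alone, which 7.71% of all genes did in this direction and 1.66% in the other. Tirap, the adaptor that brings MyD88 to TLR2 and TLR4, had 28.9 ± 3.77 CPM in the control group and 42.6 ± 3.61 CPM in the Dnmt1Δ/Δep group (SD, n = 3), which differ by 0.56 on the log2 scale (edgeR, adjusted p = 0.0384). Ikbke, a kinase of the TRIF branch, went from 25.2 ± 2.66 up to 46.6 ± 8.76 CPM (SD, n = 3), which is 0.89 on the log2 scale (edgeR, adjusted p = 0.0153). Log2 fold changes of Irak1, Irak2 and Traf6 were 0.16, 0.26 and −0.08, and none passed (adjusted p of at least 0.317 in edgeR). Ticam2, the adaptor that links TLR4 to TRIF, had at most 7 counts in a library, and 14.5% of its exon bases also belong to Tmed7.
The 8 genes of the IKK complex and NF-kB subunits, among them Rela, Nfkb1 and Ikbkb, had log2 fold changes between −0.12 and 0.28, and 0 were called in edgeR or DESeq2, also at an unadjusted p.
Of the endosomal receptors and their chaperone, only Tlr3, the gene of a double-stranded RNA receptor, and the chaperone gene Unc93b1 passed the filter. Tlr3 had 7.55, 3.67 and 4.77 CPM in control libraries and 11.9, 7.84 and 9.59 CPM in Dnmt1Δ/Δep libraries, a separation of 0.87 on the log2 scale that was called only without control replicate 1 (edgeR, adjusted p = 0.116 with all libraries). Unc93b1 had a log2 fold change of 0.08 (adjusted p = 0.915 in edgeR).
Tlr7, Tlr8, Tlr9, Tlr11, Tlr12 and Tlr13 were below the filter. Of the 7 accessory genes beside Cd14 and Ly96, 3 were tested (Hsp90b1, Cnpy3 and Cnpy4, which fold the receptors), and 0 were called in edgeR or DESeq2, also at an unadjusted p.
The 6 genes of interleukin-1 family receptors, which use MyD88 as well, gave 0 calls in edgeR with all libraries, with or without adjustment, and in DESeq2. At an unadjusted p, 1 passed in edgeR without a filter on low counts and in the fits without control replicate 1, Dnmt1Δ/Δep replicate 2 or Dnmt1Δ/Δep replicate 3. Il1r1 had a log2 fold change of −0.44 (edgeR, adjusted p = 0.0410), under the fold threshold.

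Inhibitors of the pathway had a median log2 fold change of 0.49. Of 11 inhibitors, 2 were called higher, beside 6.03% of all genes, and 0 lower, also 0 lower at an unadjusted p and in DESeq2. The count of 2 became 1 in 4 of the 6 fits that left out 1 library (those without control replicate 2 or any Dnmt1Δ/Δep replicate), where Tnfaip3 was the gene called. With a filter of 1 RPKM it was also 1, again Tnfaip3, since Tnip3 lies under this filter. Tnfaip3, which encodes the ubiquitin-editing enzyme A20, went from 21.0 ± 4.90 up to 54.8 ± 3.91 CPM (SD, n = 3), which is 1.39 on the log2 scale (edgeR, adjusted p = 0.00451), with a call in each alternative. Tnip3, an A20-binding inhibitor, started low and went from 0.186 ± 0.0548 up to 0.697 ± 0.322 CPM (SD, n = 3), which is 1.93 on the log2 scale (edgeR, adjusted p = 0.0412), but was not called when any 1 library was left out. Nfkbia, the gene of the NF-kB inhibitor IkBα, went from 131 ± 21.3 up to 249 ± 24.0 CPM (SD, n = 3; edgeR, adjusted p = 0.00918), just under the fold threshold, and was called without control replicate 3. Socs1, a suppressor of cytokine signaling, was called without control replicate 1 only. Irak3 and Tollip had log2 fold changes of 0.36 and −0.07 (adjusted p of at least 0.705 in edgeR).
Of 21 genes known as outputs of Toll-like receptor signaling, 19 were tested and 11 were called higher, against 6.03% of all genes, with a median log2 fold change of 2.51. None (0) was called lower in edgeR or DESeq2, also at an unadjusted p. The count was 7 without Dnmt1Δ/Δep replicate 1, when Cxcl2, Cxcl3, Csf3 and Cxcl10 were not called, and both Cxcl3 and Cxcl10 were also not called without either other Dnmt1Δ/Δep library. Further fits that lost a call were that without control replicate 3 for Cxcl3, and those without control replicate 2 and with the filter of 1 RPKM for Cxcl10. Cxcl5 had 7.22 CPM in control replicate 1 and 0.831 and 1.64 CPM in the other control libraries, against at least 88.2 CPM in the Dnmt1Δ/Δep libraries. Csf2, the gene of the growth factor GM-CSF, had 14, 7 and 7 counts in control and 325, 380 and 289 counts in Dnmt1Δ/Δep libraries (log2 fold change 5.13, adjusted p = 9.59e-04 in edgeR). Next by fold change were the neutrophil chemokine genes Cxcl5 (4.81) and Cxcl3 (4.22), the growth factor gene Csf3 (4.03), the cytokine gene Il1a (3.93) and the monocyte chemokine gene Ccl2 (3.43). These genes have other inducers too, and the list was made with earlier results of these data known. Ptgs2, Icam1 and Sod2, which also belong to it and are named after their values were seen, had log2 fold changes of 0.42, 0.19 and −0.12 and were not called.

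**Figure D4:**
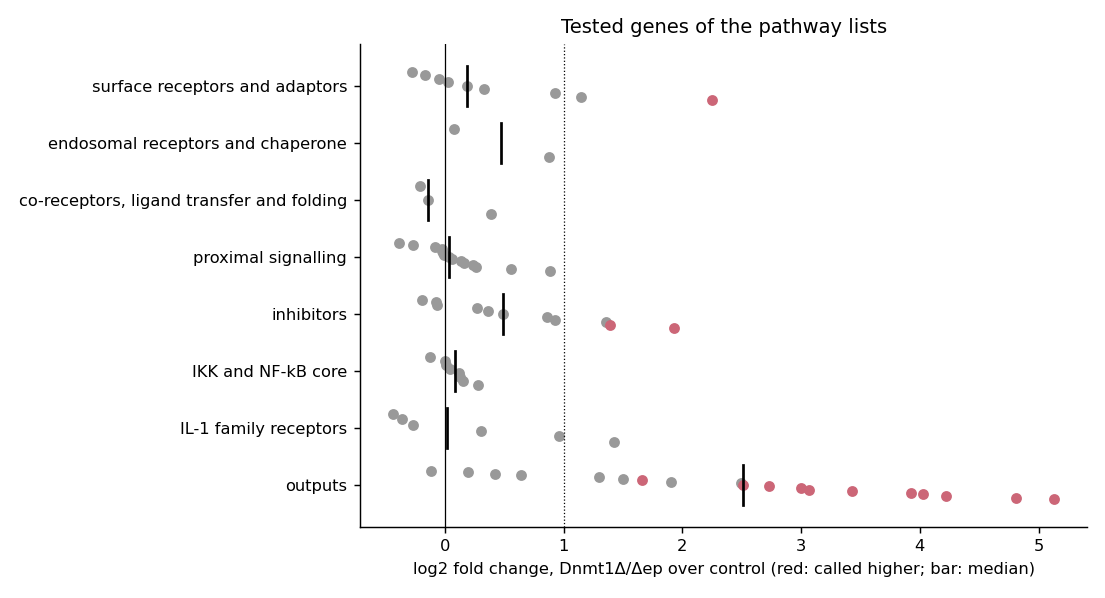
Log2 fold change of every tested gene in the 8 lists, 1 point per gene, with red for genes called higher and a black bar for the median of each list. The outputs reach a median of 2.51, whereas the core of IKK and NF-kB stays between −0.12 and 0.28.

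Tlr4 and Tlr2 are also expressed by macrophages, endothelium and fibroblasts, and in bulk RNA a change in cells of a type and a change in RNA per cell cannot be told apart. Some markers of such cells were higher in Dnmt1Δ/Δep libraries, as were Tlr4 and Tlr2, and others were not. The part of these cells in the levels of both receptors was not tested for any of the cell types that follow. Of 14 markers of macrophages, monocytes and dendritic cells, 6 passed the filter and 2 were called higher, beside 6.03% of all genes. These were Csf1r, with a log2 fold change of 2.67 and up to 2.42 CPM, and Itgam, with 2.35 and up to 1.78 CPM. Cd68 (0.97) passed the adjusted p alone, and Cd74 (3.30), with 0, 0 and 7 counts in control libraries, did not. Of the 6 tested markers, these 4 had all Dnmt1Δ/Δep libraries above the control libraries, as 18.2% of all tested genes did. Mrc1 (0.93) overlapped between the groups and Cx3cr1 went the other way (−0.62), and neither was called. With the replicate block Itgam alone was called. Leaving out Dnmt1Δ/Δep replicate 1 left 0 of the 14 called in edgeR (2 at an unadjusted p), leaving out control replicate 3 gave 3, and each of the other 4 such fits gave 1. With the filter of 1 RPKM 0 were called, since Csf1r and Itgam lie under it. The 14 markers summed to between 49.9 and 63.6 CPM in the control libraries, against between 103 and 120 CPM in Dnmt1Δ/Δep libraries, almost all of it from Cd68. Ptprc, the common leukocyte marker, had 0, 0 and 2 counts in control and 12, 1 and 0 counts in Dnmt1Δ/Δep libraries. Lyz2, Adgre1, Tyrobp and C1qa reached at most 0.101, 0.00848, 0.0186 and 0.0186 CPM in any library.
The 4 endothelial markers summed to between 5.29 and 17.1 CPM in control libraries and between 14.5 and 21.7 CPM in Dnmt1Δ/Δep libraries. Pecam1 and Cdh5 were called higher, beside 6.03% of all genes, with log2 fold changes of 1.89 and 4.11 (edgeR) and a call in each alternative. Kdr (−0.16) and Tek (0.58) overlapped between the groups, went in opposite directions and were not called. The 6 fibroblast markers summed to 17.4, 28 and 12.2 CPM in control, and to 58.8, 12 and 49.9 CPM in Dnmt1Δ/Δep replicates 1, 2 and 3. Tlr4 followed the order of these sums in the Dnmt1Δ/Δep libraries (20.7, 15.3 and 18.7 CPM) and the reverse order in the control libraries (4.05, 3.01 and 4.47 CPM). Of these markers 0 were called in edgeR or DESeq2, with 1 at an unadjusted p in edgeR, and Col1a1 was called without Dnmt1Δ/Δep replicate 2. The 5 melanocyte markers summed to between 204 and 536 CPM in the control libraries, against between 646 and 873 CPM in Dnmt1Δ/Δep libraries. Of them 0 were called in edgeR and 1 at an unadjusted p, Tyrp1 was called with DESeq2, Dct and Tyrp1 with the replicate block, and Dct without control replicate 3.
Of 8 neutrophil markers 3 were tested. S100a8 and S100a9, which keratinocytes express as well, were called higher, beside 6.03% of all genes. Neither was called without Dnmt1Δ/Δep replicate 1 or without Dnmt1Δ/Δep replicate 2. S100a9 was also not called without control replicate 1 or 2, without Dnmt1Δ/Δep replicate 3 or with the filter of 1 RPKM. Cxcr2, a chemokine receptor gene, had a log2 fold change of 1.95 with all 3 Dnmt1Δ/Δep libraries above the control libraries (edgeR, adjusted p = 0.0535), and it was called by DESeq2, without a filter on low counts, and without control replicate 3 or Dnmt1Δ/Δep replicate 3. Ly6g and Mpo reached at most 0.0168 and 0.0170 CPM, and Csf3r was at 0. The summed levels of T cell and mast cell markers were at most 0.0925 and 0.185 CPM. Of 3 Langerhans cell markers 0 were called in edgeR or DESeq2, also at an unadjusted p, and their sum was between 113 and 154 CPM in control and between 175 and 232 CPM in Dnmt1Δ/Δep libraries. Nearly all of it came from Epcam, which passed the adjusted p alone (log2 fold change 0.69; edgeR, adjusted p = 0.0396), and Cd207 was at most 0.00848 CPM.

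Call and direction were followed over 12 alternatives for each tested gene (11 for Tlr6, which lies under the expression threshold of 1 RPKM). The log2 fold change of Tlr4 stayed between 2.10 and 2.37. That of Tlr2 ranged from 0.70 to 1.17 and that of Tlr6 from 0.63 to 1.80, always above 0. Log2 fold changes of Ly96 and Myd88 lay on both sides of 0, between −0.07 and 0.22 and between −0.19 and 0.03.

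**Figure D5:**
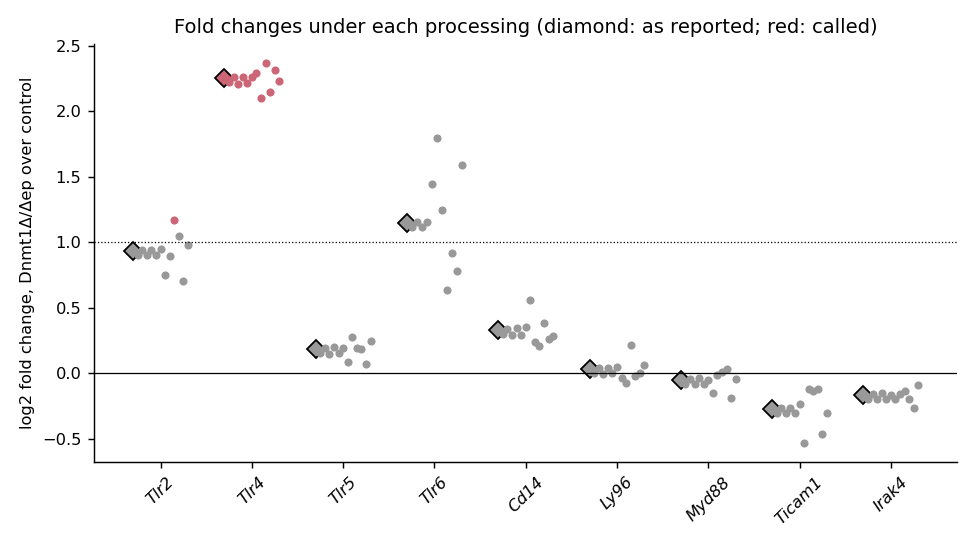
Log2 fold change of the 9 tested genes under each processing, with a diamond for the reported value, dots for the alternatives and red for a call. Tlr4 is called throughout, and Tlr2 in the 1 alternative without control replicate 3.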

How the data were processed

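RNA of keratinocytes cultured from 3 control and 3 Dnmt1Δ/Δep mice was sequenced after poly(A) selection. Per the labels and the study's methods, the authors trimmed reads with cutadapt, removed ribosomal reads with Bowtie2, aligned with STAR and deposited counts of uniquely mapped reads per gene from HTSeq in union mode. The submitters' processing notes name GRCm38, and the strand setting of the counting is not given in the sources used here. Rows that name no gene held 8.73% to 12.9% of the reads and were left out. Tables of the authors' own comparison, with fold changes, p-values and normalized values, and a table of repeat counts were not used.

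Genes were filtered with filterByExpr (minimum counts 10 and 15), scaled with TMM and tested with the quasi-likelihood test of edgeR 4.0.16 in R 4.3.3, after a test on simulated data. P-values were adjusted by Benjamini-Hochberg over 16829 genes. Standard errors were derived from the F statistic, and intervals cover 95%. CPM used TMM library sizes, and RPKM added the summed exon length of GENCODE gene models. DESeq2 1.42.0 was an alternative, beside other size factors, other filters, a replicate block and leaving out each library. Replicate numbers pair the samples, since the headers give each number its own lane and deviations from the group means correlated at 0.431, 0.279 and 0.300 within the pairs. The 10 genes were given by name. From each list, up to 6 called genes with the largest fold change and a mean of at least 50 counts were named, together with Tirap, Ticam2, Traf6, Irak1, Irak2, Irak3, Tollip, Lbp, Tlr3 and Unc93b1 whatever their values. Ikbke, Nfkbia, Socs1, Tnip3, Il1r1, Rela, Nfkb1, Ikbkb, Ptgs2, Icam1, Sod2 and single marker genes were named after their values were seen. The genes and lists were chosen with earlier results of these data known. Gene reads per library were 53433121 to 115526598, so that 3 counts equal 0.0254 to 0.0558 CPM.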

Additional observations from a re-analysis of the deposited data

How the results depend on the processing

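Tlr4 was called in all 12 alternatives and 0 of the 10 genes were called lower in any. Over all genes, 391 were called higher with a filter of 1 RPKM, and those called lower numbered 107 without a filter on low counts, 35 with the filter of 1 RPKM, 122 with DESeq2 and 279 at the adjusted p alone. Leaving out 1 library at a time gave 559 to 1183 genes higher and 15 to 180 lower, 1 to 2 of the 10 genes higher, and log2 fold changes of 0.70 to 1.17 for Tlr2, −0.0745 to 0.215 for Ly96 and −0.192 to 0.0281 for Myd88. Without a filter on low counts Ly96 was at −0.00672. The changes of sign of Ly96 and Myd88 lie inside their intervals, and the cause was not tested. With the replicate block 1173 genes were called higher and 95 lower, and the log2 fold change of Tlr2 was 0.95. The block changed no call among the 10 genes. Tlr1 could not be tested, and Tlr6 was absent under the filter of 1 RPKM. Tlr6, with 1 to 108 counts a library, had 1.45 with the block and was not called there.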
